A study of Allium sativum with 84 samples.

Results

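The transcript followed here was that of an FT-like gene of garlic (Allium sativum), listed as Asa6G06199.1, which is 1 of 57561 gene IDs in the expression table. It was taken by its ID, which the study calls FT-like, and its level was read in all 84 accessions. RNA was sequenced from bulbs in enlarging growth, 1 library for each accession, and the labels give 3 bulbs per accession. All accessions were planted in 2019 on 1 farm in Shandong, China, and were sampled in spring 2020, without any treatment, so that the only label that differed was the country or collection site of the accession. 16 accessions came from 11 sites in other countries and 68 from China, in 21 groups by province or with no province given. Garlic is propagated through its cloves, and an accession stands for 1 cultivated or collected clone, with no repeat library of any of them. The labels gave neither the hour of harvest nor the day of the month. The tissue could not be checked against marker genes, since the table pairs no ID with a name.

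FLOWERING LOCUS T and its relatives encode small mobile proteins of the phosphatidylethanolamine-binding family, which are made in leaves under an inductive day length and move through the phloem to act with bZIP partners at growing points. In Arabidopsis the best known member triggers flowering, and in onion and potato other members govern the swelling of bulbs and tubers. The transcript measured here is that of the bulb itself, not of the leaf, and reads shared with near-identical members of the family cannot be told apart, because no source used here states how such reads were handled.

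The FT-like gene was a transcript of middling abundance that varied widely. Values are in FPKM, that is, fragments counted for a gene after correction for gene length and library size. Over 84 accessions its level averaged 5.77 ± 5.03 FPKM (SD), with a lowest value of 0, a median of 4.17 and a highest value of 24.9 FPKM. The first and last quartile bounds lay at 2.72 and 6.96 FPKM. 56 accessions fell between 2 and 10 FPKM, 15 were below 2 and 13 were at or above 10 FPKM. Among genes that reached 1 FPKM in 4 or more accessions, 48.6% had a lower mean. Its coefficient of variation was 87.1%, against a median of 72.8% among those genes, and 57.9% of them varied less. The Shannon-Wiener index of expression diversity, computed here over 10 intervals that were 0.5 SD wide (the study words this width as a standard error), was 2.51 for the FT-like gene and 2.26 for the median gene. That median is over a wider set, the 47415 genes above 0 FPKM in at least 1 accession. The gene was thus neither rare nor unusually variable for this table.

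A small number of reads stood behind each value. Because FPKM of weakly expressed genes rise in steps of single reads, the reads of the FT-like gene could be recovered in every library, each within 0.05 of a whole number. A median of 32 reads lay behind a value, and the range was 0 to 176. The exact Poisson 95% interval of an accession, which covers counting error only, lay wholly above the median of all accessions in 27 accessions and wholly below it in 23, and held it in the other 34. The variance among accessions was 34.9 times that of counting alone. The ends of the ranking were therefore well separated by depth, and the middle was not. At the low end, Jilin replicate 1 was listed at 0, where 3 reads would have given 0.304 FPKM. Shandong replicate 7 had 0.372 FPKM from 3 reads, Canada replicate 2 had 0.606 from 4 reads, Shandong replicate 6 had 0.679 from 6 reads and the accession from Japan had 0.687 from 5 reads. These 5 lowest accessions came from 4 sites. At the high end, Xinjiang replicate 3 had 24.9 FPKM (171 reads, interval 21.33 to 28.96 FPKM). The accession from Egypt, spelled Eygpt in the labels, had 24.0 FPKM and that from Israel 23.9 FPKM. These 3 accessions stood above the widest gap in the ranking, which ran from 15.7 to 23.9 FPKM, and their intervals overlapped each other but not that of the accession below the gap.

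**Figure D1:**
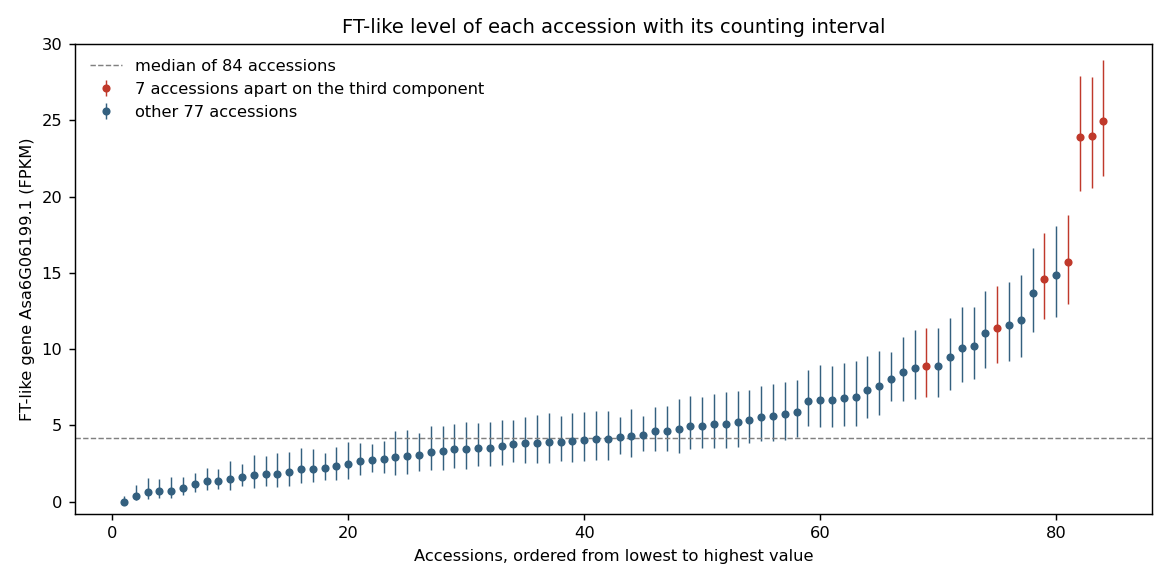
FT-like level in FPKM (vertical axis) of the 84 accessions in order of their value (horizontal axis). Points are single libraries, bars are exact Poisson 95% intervals from recovered reads, and the dashed line is the median of 4.17 FPKM. Red marks 7 accessions that stood apart in their overall expression. The 3 highest accessions, at 23.9 to 24.9 FPKM, are all red.

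Some of the high accessions, but not all, also stood apart in overall expression. In a principal component analysis of the other genes, from which the FT-like gene was left out, the third component (9.58% of the variance) set 7 accessions apart from the rest by its widest gap. They were Xinjiang replicates 3, 6 and 8, both accessions from Greece, and those from Israel and Egypt. Their FT-like level was 8.89 to 24.9 FPKM with a median of 15.7 FPKM, while the other 77 accessions had 0 to 14.9 FPKM with a median of 3.96 FPKM. All 7 were among the 16 highest accessions for the FT-like gene, although 9 of the other 77 lay above the lowest of the 7. The 7 were defined from expression and were not matched to the groups of the study, which the labels do not give. This difference is therefore a description and was not tested. The group comparisons and the relations with other genes are given below with and without them where they rest on them. Since all 7 were high for the FT-like gene, leaving them out takes away high values of it. Such refits describe how far a value depends on the 7 and test nothing else.

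Along the collection sites, the mean or single value of a site ran from 0.687 FPKM (Japan) to 24.0 FPKM (Egypt). The level also varied widely within several sites that held more than 1 accession. Sites with at least 4 accessions were tested, and no difference between them passed, as given below. The highest sites were Egypt and Israel with 1 accession each, and Greece with 14.6 and 15.7 FPKM. Hunan followed with 11.9 FPKM in its single accession. Xinjiang then averaged 8.91 ± 7.31 FPKM (SD, n = 9). Its 9 accessions spanned 2.49 to 24.9 FPKM with a median of 5.63 FPKM, which covers most of the range of the collection. Among the sites with at least 4 accessions, those from Henan were the closest to each other, at 5.90, 4.73, 3.94 and 6.69 FPKM. The 4 from Hebei had 8.90, 5.09, 3.42 and 1.82 FPKM. The 6 from Shanxi ranged from 1.83 to 10.1 FPKM with a median of 4.01 FPKM. The 5 from Canada had 2.18, 0.606, 3.32, 11.6 and 1.62 FPKM, so that 1 of them was high and the other 4 were below the median of the collection. The 15 from Shandong, where all plants were grown, ranged from 0.372 to 13.7 FPKM with a median of 4.12 FPKM. At the low end, both accessions from Jiangsu were alike at 1.345 and 1.367 FPKM, and those from Jilin had 0 and 2.64 FPKM. The 2 accessions from Yunan lay far apart, at 1.13 and 9.47 FPKM. 18 of the 32 groups held 1 accession only, so their place in this order has no replicate.

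**Figure D2:**
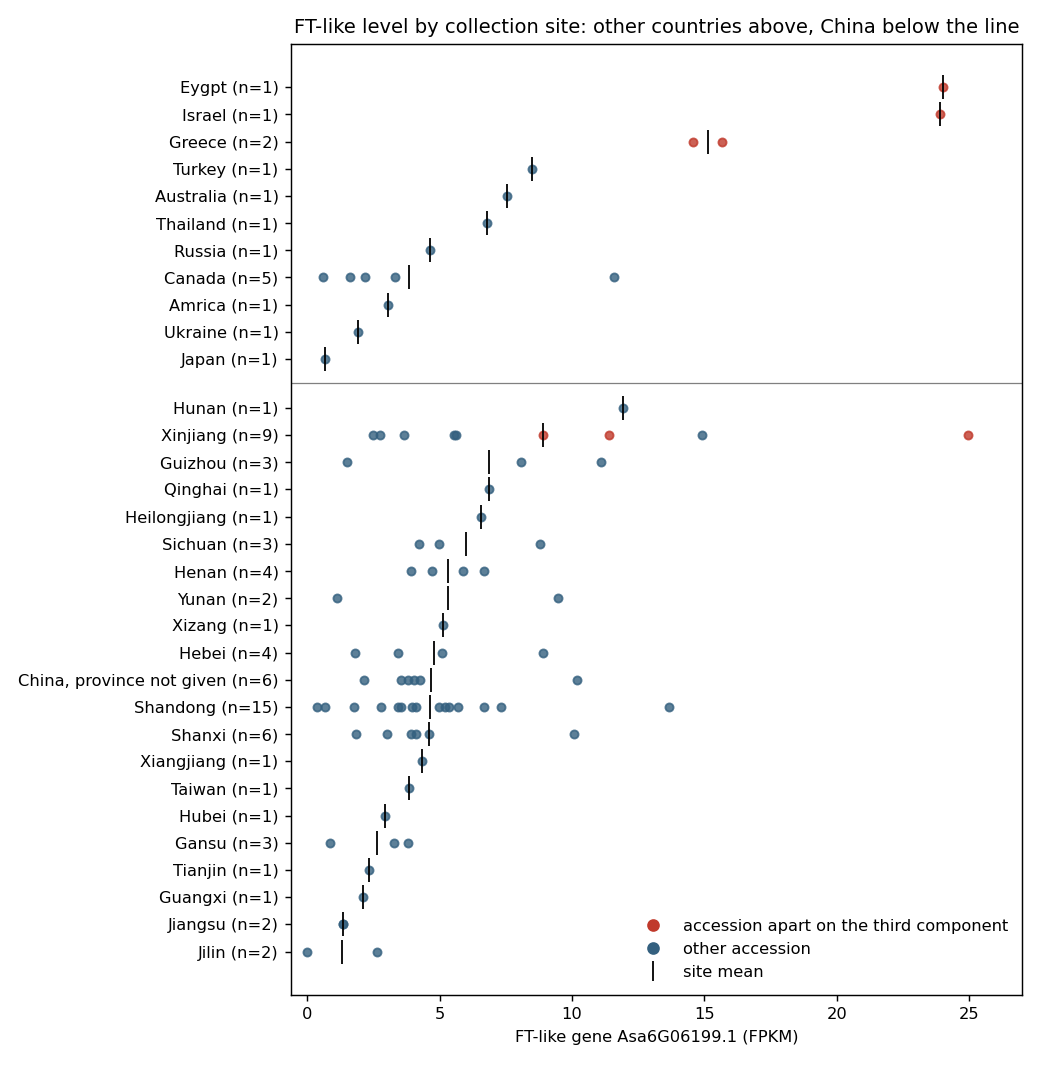
FT-like level in FPKM (horizontal axis) of each accession by collection site, with sites of other countries above the line and groups from China below it, each ordered by mean. Points are accessions, red ones are the 7 that stood apart on the third component, and the black stroke is the site mean. Xinjiang, with 9 accessions between 2.49 and 24.9 FPKM, overlaps nearly every other site.

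The first comparison asked whether accessions from abroad differed from Chinese ones. The FT-like level spanned 0.606 to 24.0 FPKM in the 16 accessions from other countries, with a median of 5.71 FPKM, and 0 to 24.9 FPKM in the 68 from China, with a median of 4.11 FPKM. 9 of the 16 from other countries lay above the Chinese median. The ranges overlapped almost completely. On the log2(FPKM + 1) scale the difference was 0.30 ± 0.26 (SE, 95% interval -0.23 to 0.82), which did not pass (limma, adjusted p = 0.594), and a permutation test of this gene alone gave p = 0.266. In the same fit 3.67% of 36007 tested genes passed. The sign depended on the 7 accessions that stood apart, 4 of which came from other countries. These 4 had 14.6 to 24.0 FPKM, above the mean of 8.16 FPKM in other countries. Leaving them out therefore had to lower that mean. Without the 7 accessions the FT-like gene averaged 4.37 ± 3.49 FPKM in other countries (SD, n = 12) and 4.76 ± 3.14 FPKM in China (SD, n = 65), and the log2 difference was -0.18.

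Because day length changes with latitude, southern and northern provinces of China were set side by side. The 12 southern accessions (Guangxi, Yunan, Guizhou, Hunan, Hubei, Sichuan and Taiwan) averaged 5.84 ± 3.84 FPKM and the 46 northern ones 5.31 ± 4.34 FPKM (SD). Southern values ran from 1.13 to 11.9 FPKM with a median of 4.597 FPKM, within the northern range of 0 to 24.9 FPKM with a median of 4.11 FPKM. The log2 difference of the FT-like gene was 0.14 ± 0.29 (SE, 95% interval -0.43 to 0.71, limma adjusted p = 0.861), and none of 34702 tested genes passed in this limma fit (0%), while 5548 had an unadjusted p under 0.05. Its permutation test gave p = 0.624. When the 2 low accessions from Jiangsu, a province that lies across the usual dividing line, were counted as southern, the difference was -0.04. Since all plants grew on 1 farm, this compares the origin of the accessions, not the day length they met.

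Among the 6 sites with at least 4 accessions, the F test of the FT-like gene gave 1.36 (limma, adjusted p = 0.812), in a fit in which 0.0442% of 33913 tested genes passed. Relative to Shandong, the log2 difference was 0.73 ± 0.36 in Xinjiang (SE, limma adjusted p = 0.453), with an unadjusted 95% interval of 0.0048 to 1.45. It was 0.37 ± 0.48 in Henan (adjusted p = 1), 0.12 ± 0.48 in Hebei (adjusted p = 1), 0.08 ± 0.41 in Shanxi (adjusted p = 1) and -0.37 ± 0.44 in Canada (adjusted p = 0.716). Of all genes tested, 1.35% passed for Canada and 0% for each of the other sites in limma, where 0.537% to 10.98% of genes had an unadjusted p under 0.05. Of all 15 pairs of these sites, none passed an exact permutation test added after the data were seen. The lowest p was 0.0724, for Xinjiang against Shandong (adjusted p = 0.603 over 15 pairs). No difference beyond their spread was therefore shown between sites that follow each other in the order of means. Xinjiang without its 3 accessions that stood apart averaged 5.83 ± 4.64 FPKM (SD, n = 6), against 4.63 ± 3.20 FPKM in Shandong (SD, n = 15). The log2 difference of Xinjiang from Shandong then was 0.29 and the F value over the 6 sites 0.515.

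**Figure D3:**
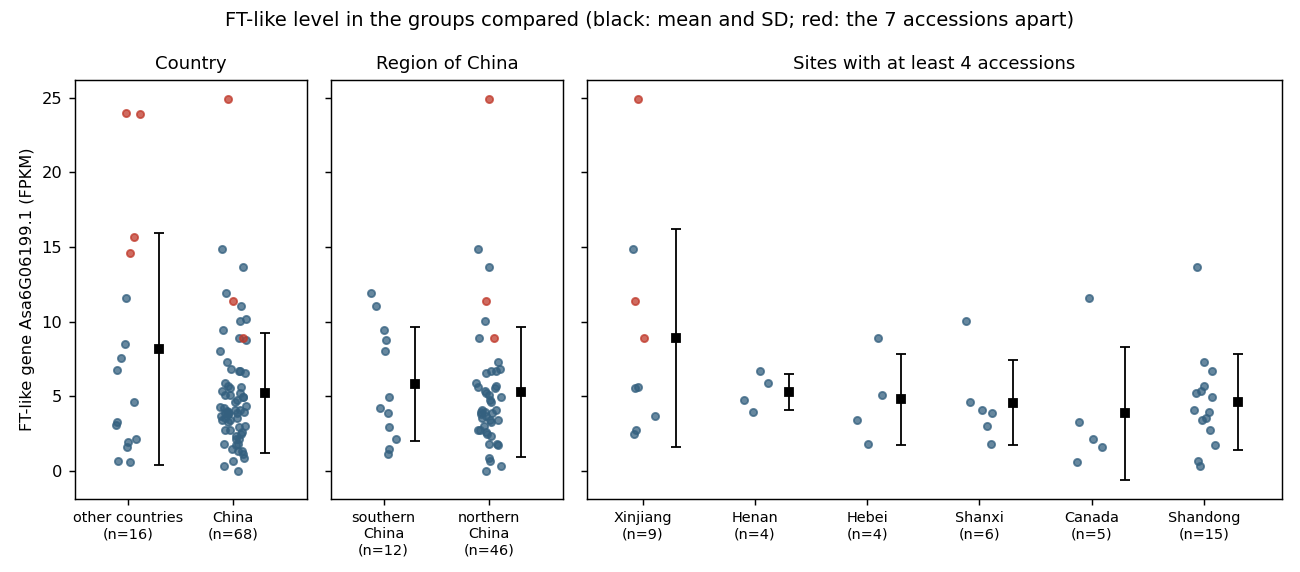
FT-like level in FPKM (vertical axis) in the groups compared, by country, by region of China and by site. Coloured points are accessions, red ones being the 7 that stood apart, and black squares with bars are means with SD. Red points supply 4 of the 16 values of other countries and 3 of the 9 values of Xinjiang.

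The libraries differed 2.29-fold in relative depth, from 0.449 to 1.03 of the first one, and in detected genes from 31485 to 36548. Both moved with the FT-like level. Across 84 accessions its log2 value had r = -0.35 and rho = -0.30 with relative depth (permutation p = 0.00111, adjusted p = 0.00166 over 3 measures), and r was -0.36 without the 2 libraries farthest from the median depth and -0.35 without the 7 accessions that stood apart. With the number of genes above 0 FPKM it had r = 0.36 and rho = 0.43 (permutation p = 0.00067, adjusted p = 0.00166), but r was only 0.11 and 0.20 on the 2 sides of 0 on the first component. With the sum of FPKM of a library r was -0.21 (permutation p = 0.0503) and rho was -0.10. The part of depth in the results was not tested, beyond a fit with depth as a covariate that is given with the other settings. By order of the columns in the deposited table, the first 7 columns averaged 7.53 FPKM, the next 16 averaged 4.13 FPKM and the last 61 averaged 6.004 FPKM.

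A large part of the bulb transcriptome varied with the FT-like gene. In a regression of each gene on the log2 value of the FT-like gene, 16309 of 36006 genes passed (45.3%, limma, adjusted p under 0.05), of which 11571 were higher (32.1% of those tested) and 4738 lower (13.2%) in accessions with more FT-like transcript. The balance of the directions depended on the scale of the libraries. After median-ratio scaling 7940 genes were higher and 7511 lower, and after quantile normalization 6919 were higher and 7891 lower, so the excess of positive relations was not a stable feature. Over all tested genes r had a median of 0.11, and 5% of genes were below -0.37 and 5% above 0.52. With so many genes passing, a single pass says little about the FT-like gene, and the rank of r among all genes is therefore given below for each gene named in the study that passed. Much of the relation was shared with the main axes of expression, since the FT-like gene itself had r of 0.43, -0.40 and 0.28 with the first 3 components, whose signs are arbitrary. With the 3 components as covariates 10335 genes passed, and 34.3% of the original calls were among them in the same direction. Without the 7 accessions that stood apart 15461 of 35247 tested genes passed, 12113 of them higher and 3348 lower, and they held 69.3% of the original calls in the same direction.

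The genes whose pattern was most like that of the FT-like gene were taken as the 2 with the highest and the 2 with the lowest r among those that passed with a mean of at least 1 FPKM. The table does not name them. Asa7G02288.1 was closest, with r = 0.76, rho = 0.70 and a slope of 0.50 ± 0.05 (log2 per log2 unit, SE, limma adjusted p = 1.18e-12). Its level was 8.13 to 78.5 FPKM with a median of 35.6 FPKM, and its lowest accession was Jilin replicate 1, where the FT-like gene was listed at 0. Its median was 52.6 FPKM in the 21 accessions highest for the FT-like gene and 21.7 FPKM in the 21 lowest. Asa5G04418.1 followed with r = 0.76, rho = 0.71 and a slope of 0.80 ± 0.08 (SE, adjusted p = 1.18e-12). It ranged from 8.76 to 190 FPKM, and 18 of the 21 accessions highest for it were also among the 21 highest for the FT-like gene. Both relations held away from the 7 accessions that stood apart, with r = 0.72 and 0.70 in the other 77.

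On the negative side, Asa5G04129.1 had r = -0.70, rho = -0.61 and a slope of -0.37 ± 0.04 (SE, limma adjusted p = 1.97e-10). Its level was 25.7 to 128 FPKM, with a median of 53.97 FPKM in the 21 accessions highest for the FT-like gene and 99.2 FPKM in the 21 lowest. The r of this gene was -0.57 without the 7 accessions that stood apart, which had 25.7 to 51.6 FPKM of it. Asa3G01013.1 had r = -0.68, rho = -0.71 and a slope of -0.42 ± 0.05 (SE, adjusted p = 5.90e-10). Its median was 9.57 FPKM in the 21 accessions highest for the FT-like gene and 23.005 FPKM in the 21 lowest, and its r was -0.67 without the 7. All 4 genes kept their sign within each side of 0 on the first component and under both scalings of the libraries. After the first 3 components were taken out, r was 0.59, 0.61, -0.56 and -0.72 for the 4 genes in the order given.

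**Figure D4:**
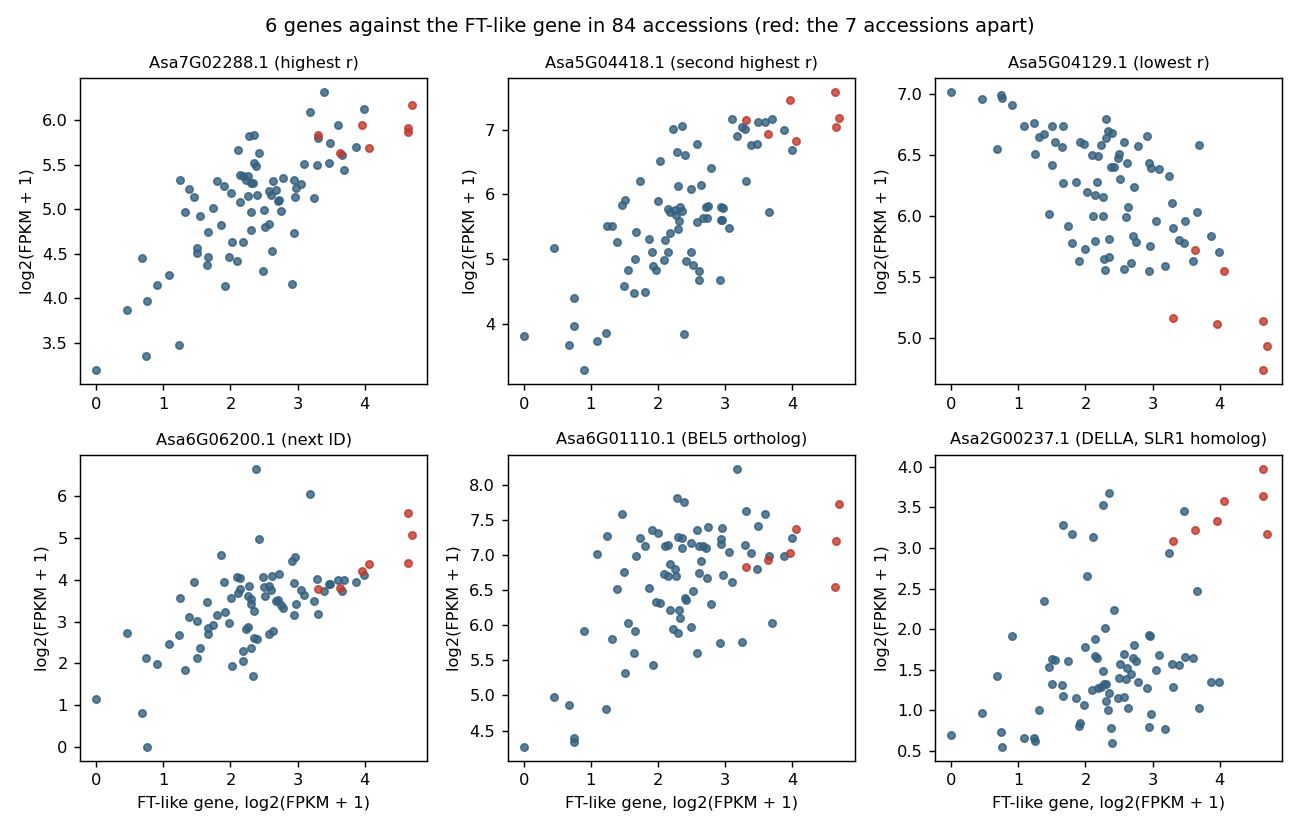
Level of 6 genes against the FT-like gene in 84 accessions, both axes in log2(FPKM + 1), with the 7 accessions that stood apart in red. Points follow 1 band in Asa7G02288.1 (r = 0.76) and Asa5G04129.1 (r = -0.70), whereas most accessions are low for the DELLA gene and all red points are among its 14 highest.

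Gene IDs are taken to number genes along a chromosome, and the FT-like gene lies on chromosome 6 by its ID. The 10 IDs on each side were examined, 15 of which could be tested. 8 of the 15 passed, 4 in each direction, against 45.3% of all genes. The ID directly below, Asa6G06198.1, did not pass, with r = 0.13 and adjusted p = 0.351 (limma), and it ranged from 2.36 to 31.9 FPKM. With relative depth as a covariate it passed, at a slope of 0.14 (limma adjusted p = 0.0158). The ID directly above, Asa6G06200.1, rose with the FT-like gene, with r = 0.64, rho = 0.63 and a slope of 0.70 ± 0.09 (SE, limma adjusted p = 6.23e-09). Of all tested genes, 99.6% had a lower r. Its level was 0 to 100 FPKM with a median of 10.7 FPKM. In the 3 accessions highest for the FT-like gene it had 32.7, 47.6 and 20.2 FPKM, and in the 5 lowest 0, 3.39, 0.757, 5.58 and 1.22 FPKM. These 3 and 5 accessions thus stood clear of each other. Of the 21 accessions highest for the FT-like gene, however, only 10 were among the 21 highest for Asa6G06200.1. Of the 21 lowest, 12 were the same for both genes. On the log2 scale the r of Asa6G06200.1 varied little with the setting. It was 0.59 without the 7 accessions that stood apart, and 0.65 and 0.73 below and above 0 on the first component. It was 0.61 and 0.63 under the 2 scalings and 0.62 after the first 3 components. On untransformed FPKM the gene still passed, at a slope of 1.01, but with a much higher p (limma adjusted p = 0.00281). A second neighbour, Asa6G06196.1, was singled out after its values were seen. It was an abundant transcript with 132 to 426 FPKM, and it had r = 0.66 (limma adjusted p = 6.31e-09), with 99.8% of tested genes lower. Its r was 0.50 and 0.70 under the 2 scalings, 0.59 without the 7 accessions and 0.45 after the first 3 components. The other tested neighbours had r between -0.45 and 0.36. Of the 20 IDs, 1 was listed at 0 throughout and another 4 were under the filter on low values. What the 2 neighbours encode is not given in the table, and reads shared between adjacent or overlapping genes were not tested.

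**Figure D5:**
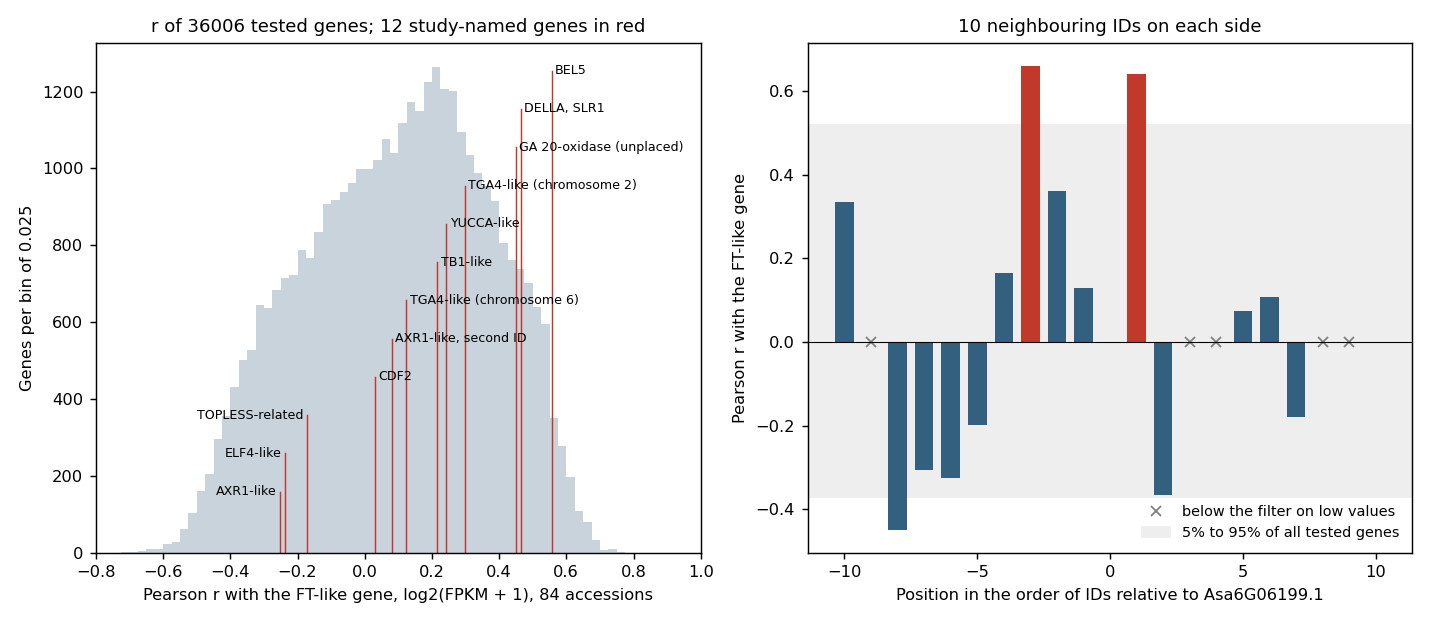
Left, number of genes (vertical axis) by their r with the FT-like gene over 84 accessions (horizontal axis), with 12 genes named in the study drawn as red lines. Right, r (vertical axis) of the 10 IDs on each side of the FT-like gene in the order of IDs (horizontal axis), where red bars have r of at least 0.5, crosses are IDs below the filter on low values, and grey spans 5% to 95% of all tested genes. The red bars are Asa6G06196.1 at 0.66 and Asa6G06200.1 at 0.64.

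The text of the study names 13 further genes of photoperiod, gibberellin and bud growth pathways, which were set beside the FT-like gene. 12 could be tested, and 4 rose and 1 fell with the FT-like gene, 41.7% of the 12 against 45.3% of all genes, with a median r of 0.17 against 0.11. As a set they therefore did not stand out from the background. Accessions are the points of these correlations, 13 were computed, and the adjusted p-values are those over all tested genes.

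In the photoperiod list 1 of 4 genes rose and none fell. Asa2G00681.1 is an ELF4-like gene, a component of the evening complex of the circadian clock in Arabidopsis. It had 9.79 to 223 FPKM with a median of 34.6 FPKM, and its relation with the FT-like gene did not pass, at r = -0.24 and rho = -0.19 (permutation p = 0.0294, limma adjusted p = 0.0585). Its r was -0.07 without the 7 accessions that stood apart, which had 10.3 to 32.1 FPKM of it. Asa8G01471.1 is a homolog of CDF2, a DOF transcription factor that represses CONSTANS and FT in Arabidopsis. It ranged from 0.385 to 49.0 FPKM and showed no relation, with r = 0.03 and rho = 0.08 (permutation p = 0.789, limma adjusted p = 0.842), and its r was negative under both scalings of the libraries. TGA4 is a bZIP transcription factor. Of the TGA4-like genes, Asa2G04763.1 rose with the FT-like gene at r = 0.30 and rho = 0.21 (permutation p = 0.00543, limma adjusted p = 0.015), which 74.2% of tested genes fell below. That call was lost without Jilin replicate 1 (adjusted p = 0.0641) and under both scalings of the libraries (adjusted p = 0.0554 and 0.074), and r was -0.02 after the first 3 components. Asa6G01159.1 was weakly expressed, at 0 to 6.20 FPKM, with r = 0.12 (permutation p = 0.26, limma adjusted p = 0.356).

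In the gibberellin list all 3 tested genes rose with the FT-like gene, as did 32.1% of all tested genes, and the DELLA gene among them did not pass without the 7 accessions that stood apart. The fourth gene of the list was under the filter on low values. The strongest was Asa6G01110.1, an ortholog of potato BEL5, a homeodomain transcription factor whose mobile transcript promotes tuber formation. It had 18.3 to 298 FPKM with a median of 112 FPKM, and r was 0.56 and rho 0.43 (permutation p = 1e-05, the smallest that 100000 permutations can give, limma adjusted p = 9.50e-07). 97.3% of tested genes had a lower r. Its median was 130 FPKM in the 21 accessions highest for the FT-like gene and 59.7 FPKM in the 21 lowest, and 12 of the 21 lowest accessions were the same for both genes, whereas 8 of the 21 highest were. Its r was 0.50 without Jilin replicate 1 and Xinjiang replicate 3, the 2 accessions farthest from the FT-like median. It was 0.57 without the 7 accessions that stood apart, 0.60 and 0.51 below and above 0 on the first component, 0.79 and 0.48 in the second and the last stretch of columns, and 0.37 after the first 3 components.

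Asa2G00237.1 is a homolog of rice SLR1 and belongs to the DELLA proteins, which hold back gibberellin responses. It rose with the FT-like gene at r = 0.47 and rho = 0.37 (permutation p = 1e-05, the smallest that can be reached, limma adjusted p = 7.24e-05), and 90.9% of tested genes had a lower r. Most accessions had a low level of it. The widest gap in its log2 level with at least 6 accessions on each side, at 5.27 to 6.69 FPKM, left 14 accessions above and 70 below, a split chosen after the data were seen. The FT-like gene had 2.18 to 24.9 FPKM with a median of 9.49 FPKM in the 14, and 0 to 14.9 FPKM with a median of 3.99 FPKM in the 70. The 14 included all 7 accessions that stood apart, and in the other 7 the FT-like gene had 2.18 to 10.1 FPKM with a median of 3.82 FPKM. Within the 2 sides r was 0.33 above the gap and 0.28 below it. Above the gap without the 7 accessions that stood apart, r was -0.05, in 7 accessions only. Over the 77 accessions r was 0.20 (limma adjusted p = 0.146).

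GA 20-oxidase is commonly known as an enzyme of gibberellin synthesis. Asa0G05638.1, a copy with no chromosome in its ID, was very abundant at 563 to 3774 FPKM, and it rose with the FT-like gene at r = 0.45 and rho = 0.43 (permutation p = 2.99997e-05, limma adjusted p = 0.000135), above 89.6% of tested genes. Its median was 2155 FPKM in the 21 accessions highest for the FT-like gene and 917 FPKM in the 21 lowest, and 12 of the 21 highest accessions were the same. However, r was -0.23 after the first 3 components. It was 0.40 and 0.21 below and above 0 on the first component, and 0.40 without the 7 accessions. The other copy, Asa4G02474.1, was under the filter, being listed at 0 in 36 accessions and reaching 0.833 FPKM, and its r of -0.22 rests on a median of 1 read.

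In the list of bud outgrowth and auxin genes none of 5 rose and 1 fell. Asa2G00245.1 is TB1-like, TB1 being a TCP repressor of lateral bud outgrowth in maize. It had 0 to 6.59 FPKM and r = 0.22 (permutation p = 0.0482, limma adjusted p = 0.092). After the first 3 components its r was 0.41, and it then passed (adjusted p = 0.00163). Asa2G02184.1 is YUCCA-like, a family of flavin monooxygenases of auxin synthesis, with 0.207 to 8.53 FPKM and r = 0.24 (permutation p = 0.0259, adjusted p = 0.0568). It passed without the 7 accessions that stood apart, with r = 0.33 (adjusted p = 0.0104), but r was 0.00 and -0.09 on the 2 sides of the first component. Asa4G00255.1 belongs to the TOPLESS-related corepressors, with 0.586 to 29.3 FPKM and r = -0.17 (permutation p = 0.115, adjusted p = 0.183). Asa2G00503.1 is AXR1-like, AXR1 being a subunit of the enzyme that activates RUB/NEDD8 in auxin signalling. It varied little, between 28.4 and 89.6 FPKM, and fell with the FT-like gene at r = -0.25 (permutation p = 0.0208, adjusted p = 0.0479), where 12.8% of tested genes had a lower r. This call was lost in 34 of the 84 fits that left out 1 accession and without the 7 accessions (adjusted p = 0.289), while after the first 3 components r was -0.48. Asa2G00253.1, another ID that the study prints for an AXR1-like gene, spanned 0.376 to 240 FPKM with r = 0.08 (permutation p = 0.47, adjusted p = 0.562). Of the 5 named genes that passed, BEL5 was the one that did so in all 14 other settings and in all 84 fits without 1 accession.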

How the data were processed

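Bulb RNA of 84 garlic accessions was sequenced on an Illumina platform after library construction with an NEBNext kit. The authors aligned clean reads with HISAT2, which the submitters' processing notes list as version 2.2.1.0, and deposited FPKM for every gene. Which program counted the reads, and how it treated shared ones, is not given in the sources used here. Between the labels and the study, the number of plants sampled and of accessions differs, which could not be settled.

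Accessions were grouped by the country or site in the labels, and accessions are the replicates, so p-values measure differences against the spread among clones, taken as independent. Since FPKM are not counts, linear models were fitted to log2(FPKM + 1), a scale that understates changes of low genes. A gene entered a fit if 4 or more of its accessions reached 1 FPKM. The tool was limma 3.58.1 under R 4.3.3, two-sided and with a mean-variance trend, and p was adjusted by Benjamini-Hochberg over every gene of the fit, with 0.05 as the threshold. Permutation tests were two-sided with 100000 draws, and exact for pairs of sites. Relative depth and reads were recovered from the steps of low FPKM values, with the first column at 1. No libraries were identical. Permutations and tables were made with SciPy 1.17.1, NumPy 2.4.6 and pandas 2.3.3 in Python 3.11.15, and figures with Matplotlib 3.10.9. The limma fit was tested on simulated data with 200 changed genes. Genes and accessions were drawn there as independent of each other. The simulation therefore cannot show how p-values behave with correlated genes or related accessions. The genes named were the 13 other genes of the study, the 2 highest and 2 lowest in r and the adjacent ID on each side. The FT-like gene, the lists and the tests were chosen with earlier results of these data known. Alternatives were other scalings (median-ratio, quantile), pseudocounts (0.1 and 10 FPKM), filters, covariates (columns in 3 blocks, depth, 3 components) and subsets of accessions.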

Additional observations from a re-analysis of the deposited data

Results flagged for a closer look

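3 of the 6 groups with 4 to 10 accessions had a highest value whose gap to the next exceeded a set share of the range. Normally distributed values would exceed that share by chance in 1 of 20 groups. FPKM of this gene were skewed, with a mean above the median, so that rate does not hold for them. The group from China with no province is also not 1 site. Canada replicate 4 had 11.6 FPKM of the FT-like gene, while the next highest accession from Canada had 3.32 FPKM. The accession labelled China without a province, replicate 6, had 10.2 FPKM, and the next highest of that group had 4.28 FPKM. Shanxi replicate 2 had 10.1 FPKM, and the next highest from Shanxi had 4.62 FPKM. The gaps were 75.3%, 73.7% and 66.2% of the ranges. On the log2(FPKM + 1) scale 0 of the 6 groups was set apart in this way. None of the 3 accessions was among the 7 that stood apart in overall expression.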

How the results depend on the processing

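No limma comparison of the FT-like gene between countries, regions or sites passed in any refit, the lowest adjusted p being 0.272. That covers 490 values, 1 for each comparison in each setting, and a single fit supplied several of them. The difference of other countries from China was -0.12 with 3 components as covariates and -0.18 without the 7 accessions that stood apart. That of southern from northern China was -0.044 with Jiangsu counted as southern. That of Shanxi from Shandong was -0.041 on untransformed FPKM and -0.034 with 3 components. Sizes moved as well. The difference of Xinjiang from Shandong was 0.29 without the 7 accessions and 0.23 with 3 components, and the F value over 6 sites was 0.515 without the 7. The difference of Canada from Shandong was -0.041 with depth and -0.69 with column blocks as covariates. Leaving out 1 accession at a time gave -0.14 (without Shanxi replicate 2) to 0.25 for Shanxi, -0.19 (without Hebei replicate 1) to 0.41 for Hebei, and 0.52 (without Xinjiang replicate 3) to 0.88 for Xinjiang. For Canada it gave -0.81 (without Canada replicate 4) to -0.07 (without Canada replicate 2), and for other countries 0.17 (without the accession from Egypt) to 0.43. The median FPKM and the coefficient of variation of the FT-like gene moved little, to 4.02 FPKM and 85.04% after median-ratio scaling and 4.14 FPKM and 84.6% after quantile normalization.

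The number of genes that vary with the FT-like gene was 10855 on untransformed FPKM (7277 higher), 10335 with 3 components as covariates (1874 lower), 7850 in the 43 accessions below 0 on the first component (6109 higher, 1741 lower) and 8394 in the 41 above it (6487 higher, 1907 lower). After median-ratio scaling 7511 were lower, and after quantile normalization 6919 were higher and 7891 lower. The share of calls that were higher was 70.9% as deposited, 51.4% and 46.7% after the 2 scalings and 81.9% with 3 components. Without 1 accession the count lay between 15006 (without Jilin replicate 1) and 16794. The background share of the group comparisons moved more, from 20 genes with 3 components to 2080 without the accession from Thailand for other countries. It was 107 genes for southern China with column blocks, 0.386% of genes for the F test with 3 components and 43 to 1957 genes for Canada with column blocks and with 3 components, and the cause was not tested.

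For the named genes the slope on the FT-like gene was as follows where a call or a sign changed. ELF4-like Asa2G00681.1 passed at -0.30 and -0.31 after median-ratio and quantile scaling, -1.68 on untransformed FPKM, -0.52 with a pseudocount of 10 and -0.24 with column blocks, and was 0.10 below 0 on the first component. The CDF2 homolog Asa8G01471.1 was -0.080 and -0.081 after the 2 scalings, -0.069 on untransformed FPKM, -0.0033 with a pseudocount of 10, -0.013 with 3 components and -0.033 below 0 on the first component. TGA4-like Asa2G04763.1 did not pass at 0.30 and 0.29 after the 2 scalings, 0.40 on untransformed FPKM, 0.38 with a pseudocount of 10 and 0.28 above 0 on the first component, and was -0.023 with 3 components. The DELLA gene Asa2G00237.1 did not pass at 0.086 with 3 components and 0.17 without the 7 accessions. GA 20-oxidase Asa0G05638.1 was -0.12 with 3 components and did not pass at 0.13 above 0 on the first component. TB1-like Asa2G00245.1 passed at 0.25 with a pseudocount of 0.1 and 0.37 with 3 components. YUCCA-like Asa2G02184.1 passed at 0.22 with a pseudocount of 0.1, 0.21 with column blocks and 0.27 without the 7 accessions, and was -0.038 with 3 components and -0.048 above 0 on the first component. TOPLESS-related Asa4G00255.1 passed at -0.24 after median-ratio scaling, and was 0.12 with 3 components, 0.21 below and 0.077 above 0 on the first component. AXR1-like Asa2G00503.1 did not pass at -0.59 on untransformed FPKM, -0.063 with a pseudocount of 0.1, -0.091 with no filter, -0.067 with column blocks, -0.058 with depth, -0.063 without the 7 accessions and -0.037 below 0 on the first component. Asa2G00253.1 was -0.69 on untransformed FPKM, -0.064 with a pseudocount of 10 and -0.053 with column blocks, and the adjacent ID Asa6G06198.1 was -0.00047 on untransformed FPKM and passed at 0.14 with depth as a covariate. The causes of these changes were not tested.

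Without 1 accession the slopes ranged from -0.11 to -0.073 for Asa2G00503.1 (lost in 34 of 84 fits), -0.27 to -0.17 for Asa2G00681.1 (passed in 13), 0.13 to 0.19 for Asa2G02184.1 (passed in 12), 0.29 to 0.41 for Asa2G04763.1 (lost without Jilin replicate 1) and -0.014 (without Canada replicate 5) to 0.085 for Asa8G01471.1. BEL5, both genes of highest and both of lowest r, and Asa6G06200.1 kept direction and call in all 14 other settings and all 84 such fits. No paired analysis was possible because replicate numbers only name accessions within a site. With a median of 32 reads, differences of the FT-like gene between single accessions in the middle of the range were not detectable, and 1 library per accession leaves no error within an accession.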

Other observations

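The share of genes that vary with the FT-like gene was much the same along the genome, from 44.1% on chromosome 2 to 47.0% on chromosome 5, by the chromosome in the gene ID, and it was 44.8% on chromosome 6, where the FT-like gene lies. Both genes of the highest r and both of the lowest r lie on other chromosomes. The accession labelled Xiangjiang, kept apart from Xinjiang because of its spelling, had 4.35 FPKM of the FT-like gene from 61 reads, and its library was the deepest, at 1.03 of the first library in relative depth. The accession from Xizang had 5.11 FPKM. Neither of them was classed as southern or northern.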
